A study of Bos taurus with 40 samples.

Results

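The 10 genes described here had a higher mean level in the ipsilateral than in the contralateral uterine horn of cattle on each of 4 days. They are NF1, ABL2, PAK3, SCAI, DCX, LNPEP, SLFN12, KCNA2, PPIG and GCFC2. They are 10 of 32671 genes in the table, and all 10 were among the 20356 genes tested. They were taken as a list that had been picked on the horn difference in these same 40 libraries, so that difference is a description of them here and carries no test. The question put to them was whether their horn difference followed the share of reads that fell on microRNA genes.

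RNA came from the endometrium, which lines the uterus, of synchronized heifers. Both horns of 20 heifers were sampled, with 5 heifers on each of days 5, 7, 13 and 16, which gives 8 groups of 5 libraries. The horn next to the ovary that bears the corpus luteum is called ipsilateral, and the opposite one contralateral. No agent or genotype distinguishes the groups in the labels. The days are pregnancy days in the labels but days post-estrus in the design text, and the presence of an embryo is stated in neither.

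The corpus luteum is the gland that forms after ovulation and secretes progesterone, and a bovine embryo normally first enters the horn on its side. The 10 genes belong to several kinds of machinery. NF1 (neurofibromin), which switches RAS proteins off, the tyrosine kinase ABL2 and the kinase PAK3, which RAC1 and CDC42 activate, act in signalling to the cytoskeleton. SCAI is a nuclear cofactor known in human and mouse cells to restrain the transcription factor SRF, and DCX is a microtubule-binding protein best known from migrating neurons. LNPEP is the aminopeptidase that cleaves oxytocin, a hormone whose receptor takes part in the release of luteolytic prostaglandin from ruminant endometrium. SLFN12 is a Schlafen protein that in human cells cleaves RNA when bound to PDE3A, and KCNA2 is a voltage-gated potassium channel. PPIG is a nuclear cyclophilin with a tail rich in arginine and serine, found with splicing factors, and GCFC2 is a protein of the spliceosome that takes part in releasing the excised intron.

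Each library held 27.03 to 64.4 M gene-assigned reads, with 41.3 M in the one ranked second. The ipsilateral day 16 library 5-137 stood apart: on the first principal component of the 2000 most variable genes it lay at 7.08, between the libraries of days 5 and 7 (-52.95 to -34.7) and the other libraries of days 13 and 16 (30.4 to 56.5). Without it, the counts of members called per day between the horns (10, 8, 3 and 2 on days 5, 7, 13 and 16) were the same as with it, and values it changed are given beside the result. Each of 20 tags in the titles stands on 1 library of each horn, as it would if it named the heifer, but the labels do not say what a tag is, and libraries with the same tag deviated together in only 6 of 20 tags. The tests do not pair the horns, and for the gene tests between horns, values with the tag as a block are given where they change a call. The permutation tests on shares of reads were not run with the tags paired. Of the tissue markers, the summed level of 10 stromal genes was 11828 to 48792 CPM (reads scaled to the size of the library) and that of 12 epithelial genes 793 to 2135 CPM, and no gene of either list was at 0 throughout any group.

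PPIG and GCFC2, the 2 splicing-related genes, had the smallest standard errors of the 10. PPIG on day 5 was 47.1, 53.1, 60.5, 66.6 and 66.8 CPM in the contralateral and 70.6, 107.4, 108.3, 109.7 and 121.9 CPM in the ipsilateral libraries, where CPM are scaled with TMM factors. On day 7 its contralateral levels were 44.0, 49.1, 51.0, 58.1 and 60.5 CPM and its ipsilateral levels 93.2, 107.3, 109.1, 111.4 and 111.6 CPM. The horns did not overlap on either day, although the lowest ipsilateral library of day 5 came close to the highest contralateral one. On day 13 PPIG was 46.3, 50.8, 56.6, 57.3 and 60.0 CPM in the contralateral horn and 102.3, 111.0, 113.6, 115.9 and 126.9 CPM in the ipsilateral horn. On day 16 these levels were 43.7, 46.4, 50.8, 52.3 and 58.9 CPM and 76.3, 98.7, 107.1, 110.2 and 113.3 CPM. Again every ipsilateral library was above every contralateral one, and the fitted log2 difference between horns stayed between 0.82 ± 0.12 (SE) on day 5 and 1.07 ± 0.12 on day 13, with 0.98 ± 0.06 as the mean over days.

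GCFC2 behaved in much the same way at its own level. On day 5 it was 17, 17.5, 18.5, 24.1 and 26.2 CPM in the contralateral and 24.8, 48.1, 50.2, 53.0 and 53.8 CPM in the ipsilateral libraries. On day 7 it was 17.3, 18.2, 18.8, 22.5 and 23.7 CPM and 37.5, 43.6, 44.2, 47.9 and 52.8 CPM. The single overlap between horns came on day 5, where ipsilateral library 8-1350 lay below the highest contralateral library. On day 13 GCFC2 was 20.2, 20.4, 20.6, 22.9 and 27.2 CPM in the contralateral and 38.9, 40.8, 45.9, 46.9 and 52.5 CPM in the ipsilateral horn. On day 16 it was 16.5, 19.5, 20.5, 21.2 and 21.2 CPM and 32.6, 34.8, 36, 45.3 and 46.2 CPM. The log2 difference was 1.15 ± 0.16, 1.17 ± 0.16, 1.01 ± 0.15 and 0.98 ± 0.15 on days 5, 7, 13 and 16, with a mean of 1.08 ± 0.08. The low ipsilateral day 5 library 8-1350 was also the one with the highest sum of 8 smooth muscle markers in its group (4419 CPM unscaled, against 659.7 to 923 CPM in the other 4), and the part of this in its PPIG and GCFC2 levels was not tested.

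**Figure D1:**
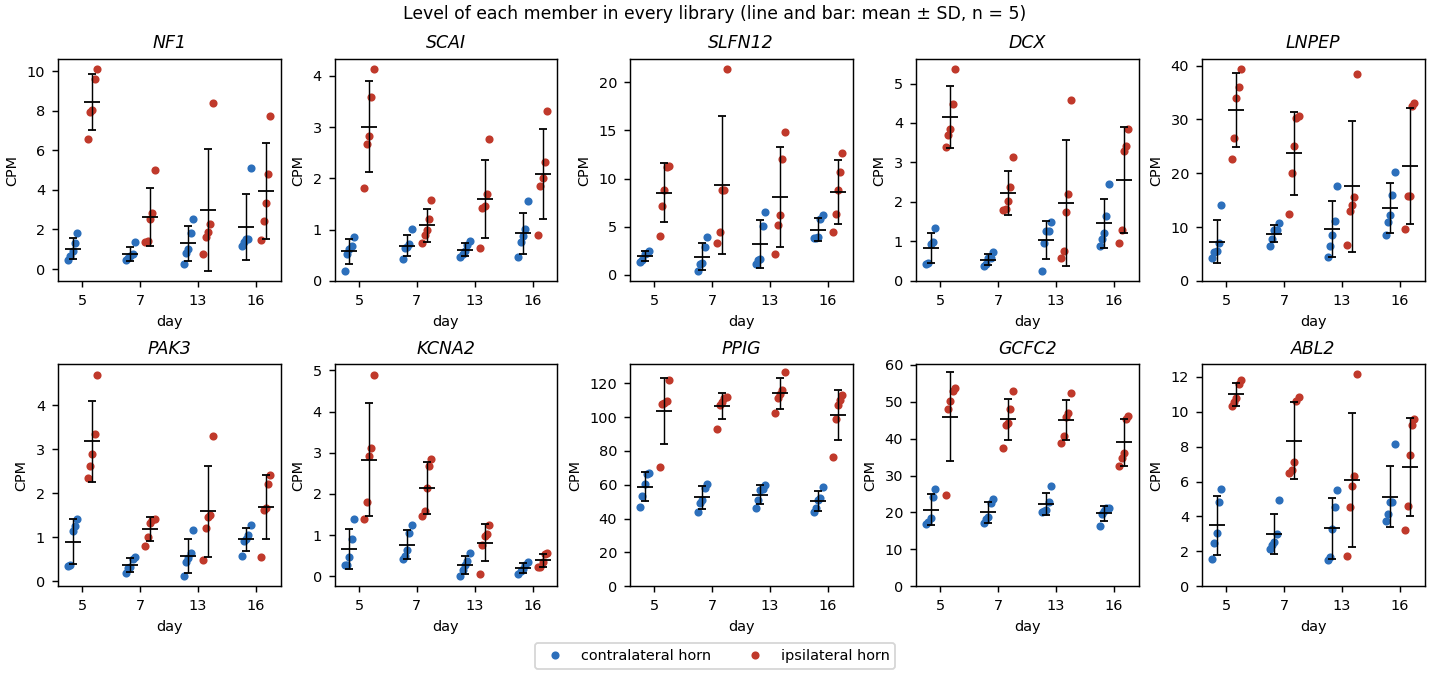
Level of each of the 10 genes in every library, in CPM on a linear axis that differs between panels, by day and horn; points are libraries, and bars the mean ± SD of 5. The horns are apart on every day for PPIG and on all days but day 5 for GCFC2, and they overlap on days 13 and 16 for the other 8 genes.

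NF1, the RAS inhibitor, had the largest horn difference of the 10 genes on day 5 and overlapping horns later. On day 5 it was 0.458, 0.678, 0.906, 1.30 and 1.85 CPM in the contralateral and 6.56, 7.93, 8.02, 9.61 and 10.1 CPM in the ipsilateral horn, an 8.09-fold difference in the fit. NF1 had low counts in the contralateral horn, with 14 to 62 reads in a day 5 library. On day 7 it was 0.481, 0.554, 0.681, 0.780 and 1.34 CPM and 1.39, 1.42, 2.53, 2.81 and 4.98 CPM. The horns did not overlap on these days, and the lowest ipsilateral library of day 7 was barely above the highest contralateral one. On day 13 NF1 was 0.276, 0.833, 1.01, 1.81 and 2.54 CPM in the contralateral horn and 0.745, 1.63, 1.88, 2.28 and 8.39 CPM in the ipsilateral horn. On day 16 it was 1.15, 1.36, 1.53, 1.54 and 5.10 CPM and 1.49, 2.42, 3.36, 4.78 and 7.72 CPM. On both later days the horns overlapped, and a single library was far above the rest of its group, 5-167 in the ipsilateral horn of day 13 and 5-137 in the contralateral horn of day 16. The log2 difference was 3.02 ± 0.57, 1.77 ± 0.56, 1.21 ± 0.55 and 0.89 ± 0.53 on the 4 days, with a mean of 1.72 ± 0.28.

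The kinases ABL2 and PAK3 had the same outline. ABL2 was 1.54 to 5.60 CPM in the contralateral and 10.3 to 11.8 CPM in the ipsilateral horn on day 5, and 3.76 to 8.13 and 3.23 to 9.58 CPM on day 16. Its horns were apart on days 5 and 7 and overlapped on days 13 and 16, and its log2 difference was 1.65 ± 0.39 on day 5 and 0.41 ± 0.38 on day 16, the smallest of any member on any day. PAK3 was 0.340 to 1.41 CPM in the contralateral and 2.34 to 4.69 CPM in the ipsilateral horn on day 5, and 0.178 to 0.554 and 0.804 to 1.42 CPM on day 7. PAK3 is a low-count gene, with as few as 4 reads in a contralateral day 13 library, and its mean log2 difference was 1.44 ± 0.23.

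SCAI and DCX were low-count genes too. SCAI was 0.198, 0.523, 0.625, 0.678 and 0.851 CPM in the contralateral and 1.81, 2.68, 2.83, 3.59 and 4.13 CPM in the ipsilateral horn on day 5, and 0.421 to 1.01 and 0.748 to 1.58 CPM on day 7. The day 5 horns were well apart and those of day 7 overlapped, with log2 differences of 2.38 ± 0.36 and 0.65 ± 0.36. On days 13 and 16 the difference of SCAI was 1.38 ± 0.36 and 1.15 ± 0.35. DCX was 0.425 to 1.34 CPM in the contralateral and 3.39 to 5.36 CPM in the ipsilateral horn on day 5, and 0.381 to 0.716 and 1.79 to 3.14 CPM on day 7, with no overlap on either day. By day 13 its ipsilateral range, 0.583 to 4.58 CPM, spanned the whole contralateral range of 0.248 to 1.49 CPM except its lowest library, and the mean log2 difference over days was 1.53 ± 0.22.

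LNPEP, the oxytocin-cleaving aminopeptidase, was 4.19, 5.36, 5.57, 7.10 and 14.2 CPM in the contralateral and 22.6, 26.5, 34.1, 36 and 39.4 CPM in the ipsilateral horn on day 5. On day 7 it was 6.54 to 10.7 and 12.4 to 30.7 CPM, still without overlap. On days 13 and 16 the horns overlapped, with 4.44 to 17.7 against 6.77 to 38.4 CPM and 8.56 to 20.3 against 9.56 to 33.1 CPM. Its means were 7.28 ± 3.99 (SD, n = 5) on day 5 and 13.6 ± 4.62 CPM on day 16 in the contralateral horn, and 31.7 ± 6.93 and 21.3 ± 10.8 CPM in the ipsilateral horn, and neither horn passed the test over days given below. SLFN12 ranged from 1.33 to 2.49 CPM in the contralateral and 4.03 to 11.3 CPM in the ipsilateral horn on day 5 to 3.78 to 6.23 and 4.46 to 12.7 CPM on day 16. It had its largest log2 difference on day 7, at 2.30 ± 0.54, where the ipsilateral libraries spread over 3.30 to 21.4 CPM.

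KCNA2, the potassium channel, had few reads. On day 5 it was 0.262, 0.283, 0.479, 0.905 and 1.40 CPM in the contralateral and 1.38, 1.80, 2.93, 3.12 and 4.90 CPM in the ipsilateral horn. On day 7 it was 0.421, 0.484, 0.650, 1.04 and 1.24 CPM and 1.45, 1.57, 2.13, 2.68 and 2.86 CPM. The horns overlapped narrowly on day 5 and were apart on day 7. On day 13 KCNA2 was 0, 0.159, 0.276, 0.368 and 0.555 CPM in the contralateral and 0.0648, 0.751, 0.971, 1.03 and 1.26 CPM in the ipsilateral horn. On day 16 it was 0.0590, 0.119, 0.180, 0.275 and 0.355 CPM and 0.229, 0.236, 0.350, 0.531 and 0.569 CPM. Both horns were low and overlapped on these days, and the contralateral day 13 library 8-275 had 0 reads, which at its 35.7 M reads allows up to 0.0841 CPM unscaled (3 reads, counting error only). In tissue RNA of this kind, fewer cells of a type and less RNA per cell cannot be told apart for any of these genes.

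The name given to the list, higher in the ipsilateral horn every day, holds for its group means and not for its tests. The group mean was higher in the ipsilateral horn on each of the 4 days for all 10 genes, and 28.1% of all genes tested had a log2 difference above 0 on each day. Only PPIG and GCFC2 passed the threshold (edgeR quasi-likelihood test, Benjamini-Hochberg adjusted p below 0.05 over all genes) on all 4 days, as did 3.09% of all genes. KCNA2 passed on 1 day and each of the other 7 on 2 days. Past the threshold were 10 members on day 5 (12.3% of all genes were called higher), 8 on day 7 (7.52%), 3 on day 13 (4.52%) and 2 on day 16 (3.87%). Nothing is read from these counts, since the list was picked on this contrast. With the tag as a block, NF1 on day 7 (1.69, edgeR adjusted p = 0.128) and SCAI on day 13 (1.27, adjusted p = 0.0516) no longer passed. Without ipsilateral library 5-140, 5 members passed on day 13, and over all genes the 921 called higher on day 13 were 562 without contralateral library 6-203. The 787 called higher on day 16 were 441 without contralateral library 8-245, 472 without ipsilateral library 5-137 and 480 without ipsilateral library 2-068.

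Every ipsilateral library was above every contralateral one on 4 days for PPIG, on 3 for GCFC2, on 2 for NF1, ABL2, PAK3, DCX and LNPEP and on 1 for SCAI, SLFN12 and KCNA2. Among all genes tested this held for 7.6%, 6.18%, 4.61% and 4.49% on days 5, 7, 13 and 16. Taking libraries with the same tag together, on the reading that a tag is a heifer, PPIG and GCFC2 were higher in the ipsilateral library in 20 of 20 tags and ABL2, the lowest, in 16. The exceptions sat in a few tags: in tag 5-140 of day 13 only 3 of the 10 genes were higher in the ipsilateral library, and in tags 5-137 and 8-245 of day 16 only 6. Such counts by tag were not made over all genes, and the list was picked on the horn difference, so nothing is read from them. As many as 1131 genes, 5.56% of those tested, had a smallest daily difference at least as large as that of ABL2, 0.41.

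**Figure D2:**
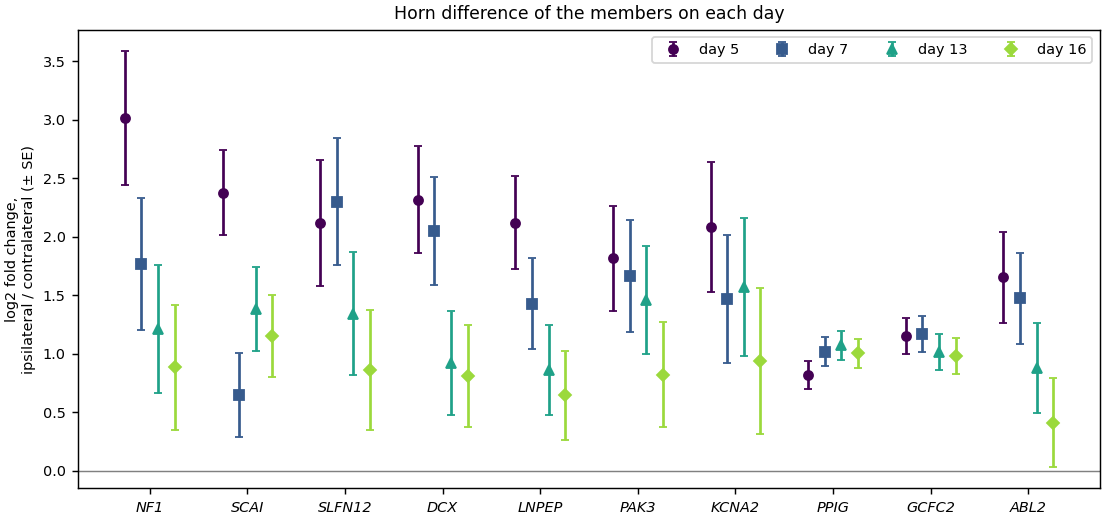
Log2 fold change between horns (ipsilateral over contralateral, ± SE of the fit over 40 libraries) of each gene on days 5, 7, 13 and 16. NF1 is at 3.02 on day 5 and 0.89 on day 16 while PPIG stays between 0.82 and 1.07, and no gene's change with day passed the test over all genes.

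The daily differences were not shown to vary with day. In the test of the interaction of horn and day, 0 of 20356 genes passed in edgeR and 0 in limma-voom, 0% of the background. At an unadjusted p below 0.05 there were 572 genes, 4 of them members (NF1, SCAI, DCX and LNPEP). The adjusted p-value of each member was close to 1, so the order of days in the daily differences is a description. The median log2 difference of the 10 members was 2.10 on day 5, 1.47 on day 7, 1.14 on day 13 and 0.88 on day 16, beside -0.03, -0.02, -0.01 and 0.00 over all genes.

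Change over the days within 1 horn was not the contrast that picked the list. The levels of each horn are part of that contrast, however. The tests over days are therefore not independent of the picking, and a gene picked for a high ipsilateral level on 1 day is apt to fall from it. In the ipsilateral horn NF1, SCAI, PAK3 and KCNA2 changed with day, 4 of 10 members where 57.3% of all genes did (edgeR F test over the 4 days, adjusted p = 0.0179, 0.0037, 0.0288 and 0.000223). In the contralateral horn DCX (0.0492) and KCNA2 (0.0125) changed, 2 of 10 where 55.2% of all genes did. PPIG and GCFC2 passed in neither horn, with adjusted p of 0.563 and 0.46 in the ipsilateral and 0.376 and 0.735 in the contralateral horn. Both shares of members are under the background. Without ipsilateral day 13 library 5-167, 7 members passed in the ipsilateral horn. The contralateral count ranged from 1 to 4 when single libraries were left out, and was 4 without either day 13 library of tag 5-167.

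Of these 4 ipsilateral genes, 3 fell from day 5 to day 7. NF1 fell from 8.44 ± 1.42 to 2.63 ± 1.46 CPM (SD, n = 5 each), a log2 change of -1.68 ± 0.54 (edgeR adjusted p = 0.0165). SCAI fell from 3.01 ± 0.891 to 1.09 ± 0.324 CPM (-1.47 ± 0.35, adjusted p = 0.0017), and PAK3 from 3.18 ± 0.924 to 1.19 ± 0.274 CPM (-1.42 ± 0.45, adjusted p = 0.0146). For each of the 3 genes every ipsilateral library of day 7 was below every ipsilateral library of day 5. The share of all genes with such a separation was not counted, so nothing is read from it. The 3 genes called lower were 3 of 10 members, where 15.9% of all genes were called higher and 14.8% lower, and each call held with any single library left out. Markers of other cells moved over the same step: 7 of 8 smooth muscle markers (median log2 change -1.65) and 7 of 10 stromal ones (-0.69) were lower, and 7 of 12 epithelial ones were higher and 1 lower (0.66). In the contralateral horn 2 of 8 smooth muscle (-0.96) and 4 of 10 stromal markers (-0.38) were lower, and 4 of 12 epithelial ones were higher and 1 lower (0.34). The part of these shifts in the falls of NF1, SCAI and PAK3 was not tested. The values of DCX (-0.90 ± 0.43, adjusted p = 0.111), LNPEP (-0.42 ± 0.38) and ABL2 (-0.40 ± 0.38) did not pass. In the contralateral horn no member passed over the same days (10.1% of genes were called higher and 9.65% lower), and PAK3 came nearest at -1.27 ± 0.48 (adjusted p = 0.0553, and 0.0355 in DESeq2).

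KCNA2 fell from day 7 to day 13 in the contralateral horn, with a log2 change of -1.49 ± 0.59 (edgeR adjusted p = 0.0493), and its value in the ipsilateral horn was -1.39 ± 0.55 (adjusted p = 0.0535). It was 1 of 10 members called in the contralateral horn, where 15.8% of genes were called higher and 17.1% lower, and 0 of 10 were called in the ipsilateral horn, where 14.5% and 15.3% were. The contralateral call rested on a narrow margin: it was lost in 30 of 40 fits with 1 library left out, and the adjusted p ranged from 0.021 to 0.126. From day 13 to day 16 no member passed in either horn, where 0.452% of genes were called higher and 0.57% lower in the ipsilateral and 0.432% and 0.899% in the contralateral horn.

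Within a group some of the genes moved together more than others. Deviations of log2 CPM from the group mean, over 40 libraries, had a Pearson r of 0.87 for NF1 and ABL2, 0.85 for NF1 and LNPEP, 0.85 for ABL2 and LNPEP and 0.79 for NF1 and DCX. PPIG and GCFC2 had an r of 0.70 with each other and at most 0.36 with any of the other 8. KCNA2 was in between, with 0.58 to ABL2 and 0.25 to SLFN12, and SLFN12 had 0.42 with DCX and 0.37 with SCAI. These are descriptions of likeness over libraries that share their depth and RNA, and the 45 pairs had r from 0.03 to 0.87 with a median of 0.42. The shared movement was largest in 2 ipsilateral libraries of day 13: 5-167 lay 1.02 log2 units above its group mean over the 10 genes and 5-140 lay 1.22 below.

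**Figure D3:**
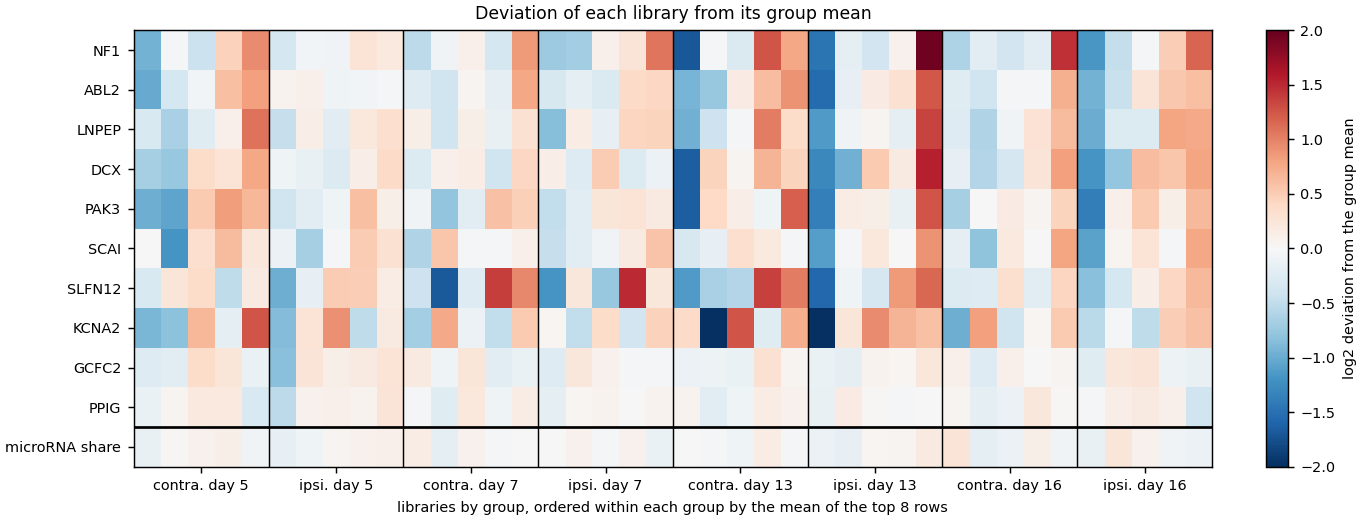
Log2 deviation of each library from the mean of its group for the 10 genes (rows) and for the microRNA share (bottom row), with libraries in columns by group and ordered within a group by the mean of the top 8 rows; colours stop at the ends of the bar. Colour runs from low to high in the top 8 rows of a group partly because they set that order. GCFC2, PPIG and the microRNA share are paler in nearly all libraries.

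The genes whose deviations were most like the mean of the 10, among genes of average log2 CPM of at least 1, were ATP7A, a copper-transporting ATPase (r = 0.92 over 40 libraries), ELK4, an ETS factor that binds DNA with SRF (0.90), LOC100336707 (0.89), IMPG2 (0.89), the tankyrase TNKS (0.88), the kinase UHMK1 (0.88), ZNF12 (0.87), the integrin subunit ITGB8 (0.87), ATRN (0.87) and the Golgi mannosidase MAN1A2 (0.86). Group means were taken out, so that likeness used no difference between horns. The members it was measured against were picked on that difference, however. All 10 of these genes were called higher in the ipsilateral horn over the 4 days, where 19.6% of all genes were, with log2 differences from 0.44 ± 0.12 for ATRN to 1.12 ± 0.21 for UHMK1. They were chosen for following the same mean and are not 10 separate outcomes, so nothing is read from this count.

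The share of reads on microRNA genes is the measure that the horn difference was set against. It sums the 801 rows named as microRNAs (MIR and a number, or the let-7 rows), of which 543 had a read, and came to 2045 to 6226 reads per library. Libraries were made from poly(A) RNA, and whether reads on these rows come from microRNA precursors or from longer transcripts over the same bases was not tested. The largest rows were MIR3064 with 26.2% of these reads, MIR421 with 10.1%, MIR374B with 9.01%, MIR568 with 4.20% and MIR7865 with 2.76%. In RefSeq's bovine table (assembly ARS-UCD2.0, used for neighbours only) MIR3064 overlaps the RNA helicase gene DDX5, and MIR421 and MIR374B lie in LOC104970537.

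The share was higher in the ipsilateral horn. On day 5 it had a mean of 0.00723% ± 0.00054 (SD, n = 5) in the contralateral and 0.0093% ± 0.000731 in the ipsilateral horn, 1.29 times as much. The ratio of the horns was 1.31 on day 7, 1.26 on day 13 and 1.18 on day 16. On days 5, 7 and 13 no libraries overlapped. That gives the smallest p that 5 against 5 unpaired libraries allow (exact two-sided permutation test, p = 0.00794, adjusted over 4 days 0.0106). Both horns of each heifer were sampled, so the libraries of a day are not independent, and the unpaired p does not allow for that. A paired test of the share was not run. With 5 pairs it would have fewer arrangements and a larger smallest p. On day 16 the horns overlapped (exact p = 0.0635, adjusted 0.0635). Averaged over days the horns differed by 0.33 log2 units, and the libraries of a group spread by 0.13 (SD of log2 share).

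Inside the groups, the level of 9 of the 10 genes had a positive slope on the log2 share, as did 52.4% of all genes, and 0 of 10 passed the test. The slope is the log2 change of a gene per log2 unit of the share in a fit of 8 group means, so it uses no difference between horns or days. GCFC2 came nearest, at 1.23 ± 0.26 (edgeR adjusted p = 0.0799, unadjusted p = 2.94e-05), the 6th lowest p of all genes. PPIG followed at 0.82 ± 0.22 (adjusted p = 0.163, unadjusted p = 0.000664), 79th by p. The other 8 genes were measured less precisely, with standard errors of 0.75 to 1.28, and their slopes ran from -1.33 ± 1.28 for KCNA2 and 0.49 ± 0.75 for SCAI to 1.34 ± 0.98 for DCX and 2.07 ± 1.15 for SLFN12. NF1, with the largest horn difference, had a slope of 0.63 ± 1.23, which turned to -0.59 without ipsilateral day 13 library 5-167.

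Over all genes, only 2 of 20282 passed higher with the share (0.00986%) and 0 lower (0%), and 0 either way with the tag as a block, while 1014 higher (5%) and 653 lower had an unadjusted p below 0.05. The 2 were LOC104970537 (1.27 ± 0.14, adjusted p = 1.87e-06), whose span holds 5 of the microRNA genes that make the share, and LOC527796 (0.77 ± 0.13, adjusted p = 0.0153). The count was 1 without contralateral library 2-1337 of day 7 or ipsilateral library 5-137 of day 16, and 4 to 8 without any 1 of 8 others. GCFC2 passed without contralateral day 16 library 2-068 (1.30, adjusted p = 0.0376), contralateral day 16 library 7-107 (1.38, 0.0356) or ipsilateral day 5 library 4-184 (1.32, 0.034), and its adjusted p over all single leave-outs ran from 0.034 to 0.156. Ipsilateral day 5 library 8-1350, which was low in GCFC2, in PPIG and in the share at once, was left out in another fit, and the slopes were then 1.03 for GCFC2 and 0.67 for PPIG.

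The slopes were also fitted in each horn. GCFC2 had 1.44 ± 0.37 in the ipsilateral (edgeR adjusted p = 0.0664) and 1.03 ± 0.36 in the contralateral horn (0.258), and PPIG 0.65 ± 0.31 (0.288) and 0.98 ± 0.31 (0.229). No member passed in either horn, where 0.0444% and 0.00493% of genes were called higher and 0.0296% and 0% lower. The difference of the 2 slopes passed for 0 genes in edgeR (0%), and for the members it was largest for KCNA2, at 4.08 ± 2.52 (adjusted p = 0.377).

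**Figure D4:**
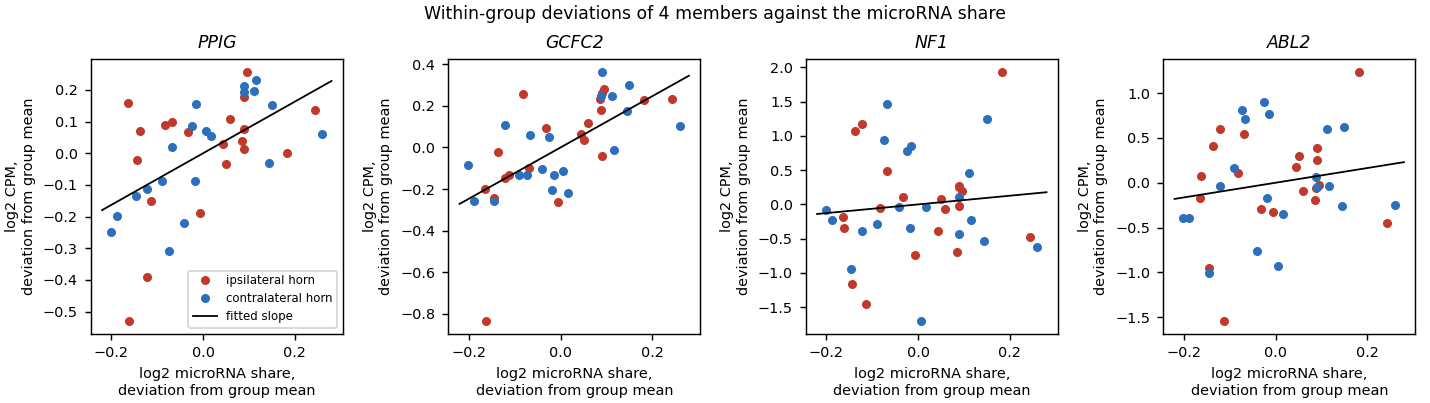
Deviation of log2 CPM from the group mean against the deviation of the log2 microRNA share, for PPIG, GCFC2, NF1 and ABL2, with 40 libraries a panel and the slope of the fit as a line; the vertical axes differ. The points of GCFC2 follow a slope of 1.23 with 1 low library, and those of NF1 scatter widely around a slope of 0.63.

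The slope and the gap in the share together set what the fit moves from the horn to the share. Multiplied by 0.33, the slopes come to 0.41 log2 units for GCFC2 and 0.27 for PPIG, out of mean horn differences of 1.08 and 0.98. For SLFN12 the product was 0.69 of 1.66, for DCX 0.45 of 1.53, for PAK3 0.41 of 1.44 and for LNPEP 0.38 of 1.27. It was 0.27 of 1.11 for ABL2, 0.21 of 1.72 for NF1, 0.16 of 1.39 for SCAI and -0.44 for KCNA2. These products carry the error of the slopes, whose standard errors were 0.75 to 1.28 for the genes other than GCFC2 and PPIG. The horn differences are those the list was picked on, so nothing is read from how near a product came.

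With the share in the fit, the mean horn difference was above 0 for all 10 genes and its standard error was larger for each. PPIG was 0.71 ± 0.09 and GCFC2 0.66 ± 0.11. NF1 was 1.5 ± 0.50, SCAI 1.22 ± 0.32 and KCNA2 2.00 ± 0.55. These 5 of 10 members were past the threshold, where 7.02% of all genes were called higher and 4.79% lower, and 19.6% had been called higher without the share. The list was picked on the horn contrast, so nothing is read from this count. With the tag as a block, 1 of the 5 passed, PPIG (0.55, edgeR adjusted p = 0.0474), while GCFC2 (0.53, 0.0982), SCAI (1.37, 0.108), KCNA2 (1.58, 0.361) and NF1 (1.57, 0.380) did not, and 197 genes in all were called higher and 109 lower. The other 5 were DCX at 1.06 ± 0.41, PAK3 at 1.01 ± 0.41, SLFN12 at 0.93 ± 0.48, LNPEP at 0.88 ± 0.34 and ABL2 at 0.83 ± 0.34. The count was 3 without contralateral day 16 library 7-107, 4 without ipsilateral day 16 library 5-137 and 8 without ipsilateral day 13 library 5-140, and NF1 was lost in 23 of 40 fits with 1 library left out. As the share itself differs between the horns, the part of a horn difference that the share takes up cannot be told apart from other differences between the horns.

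**Figure D5:**
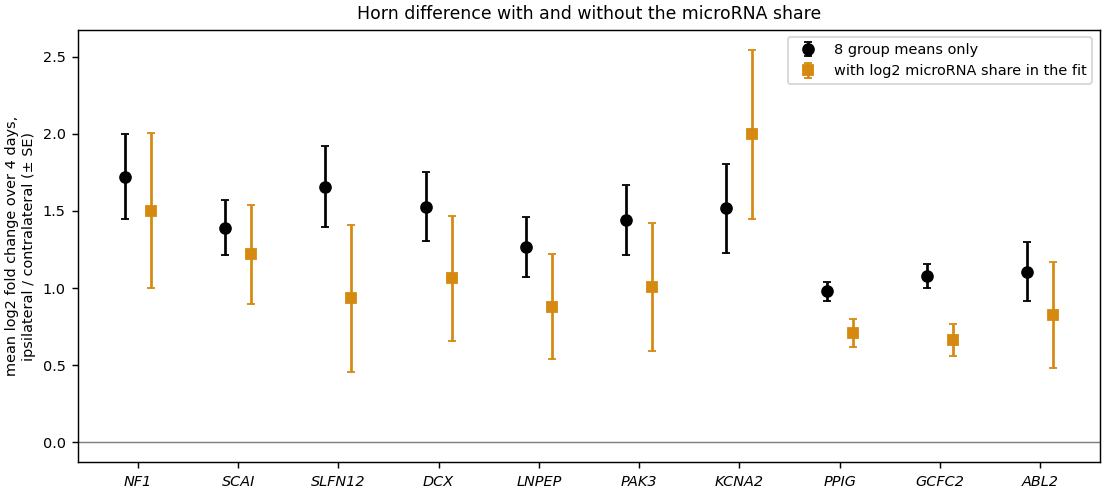
Mean log2 fold change between horns over 4 days (± SE) of each gene, with group means only (circles) and with the log2 microRNA share also in the fit (squares). All squares stay above 0, from 0.66 for GCFC2 to 2.00 for KCNA2, with longer bars than the circles.

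Genes related to members by family or pathway were counted in the mean horn contrast, with the members left out. Of 22 splicing factors tested, 17 were called higher in the ipsilateral horn and 2 lower, with a median log2 difference of 0.30 beside -0.01 over all genes, of which 19.6% were called higher and 18.6% lower. The largest were PNISR (0.74 ± 0.05), LUC7L3 (0.58 ± 0.05), PAXBP1, a relative of GCFC2 (0.57 ± 0.05), and SREK1 (0.55 ± 0.05). Of 15 other cyclophilins, 5 were higher and 4 lower, with a median of 0.02. The highest of them were NKTR, which like PPIG carries an arginine- and serine-rich tail (0.69 ± 0.05), and CWC27 (0.44 ± 0.05).

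The families of the 2 kinases had more genes lower than higher. Of 10 PAK genes and partners, 2 were higher and 5 lower (median -0.20), with PAK4 at -0.34 ± 0.05 and RAC1, an activator of PAK3, at -0.29 ± 0.03. Of 11 ABL genes and partners, 2 were higher and 6 lower (median -0.22), with the adaptors NCK1 at 0.49 ± 0.05 and CRKL at -0.30 ± 0.04.

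Of 12 genes of SRF and its partners, 2 were higher and 4 lower (median -0.02), with ELK4 at 1.09 ± 0.16 and SRF itself at -0.22 ± 0.05. Of 10 aminopeptidases and oxytocin genes, 1 was higher, ENPEP (0.75 ± 0.26), and 1 lower, RNPEP (-0.25 ± 0.07). Of 8 further Kv1 channel genes, 2 were higher, KCNA3 (0.69 ± 0.16) and the auxiliary subunit KCNAB1 (0.38 ± 0.14), and 0 lower. Of 5 doublecortin relatives, 2 were higher, DCDC2 (0.69 ± 0.16) and DCLK1 (0.33 ± 0.11), and of 3 Schlafen and PDE3A genes, PDE3A was higher (0.27 ± 0.07). None of these lists had a gene called in the slope on the share.

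Markers of other cells were read beside the members, since DCX and KCNA2 are best known from neurons. Of 8 neuron markers tested, 0 were higher in the ipsilateral horn and 1 lower, and their summed level with 3 untested ones was 32.4 to 110.9 CPM in the ipsilateral and 32 to 101.1 CPM in the contralateral groups, unscaled. Over the 40 libraries the neuron markers with the highest median were SYT1 (31.4 CPM), STMN2 (6.65), SNAP25 (4.86), TUBB3 (2.65) and UCHL1 (1.16). The medians of PRPH, ELAVL3 and RBFOX3 were 0.191, 0.175 and 0.125 CPM, and those of ELAVL4, NEFL and NEFM were 0. Of 7 Schwann cell markers 1 was higher and 1 lower, and of 8 smooth muscle markers 0 were higher and 0 lower. Epithelial markers were lower in the ipsilateral horn for 9 of 12 (median log2 difference -0.33), stromal ones for 5 of 10 (-0.16), endothelial ones for 2 of 7 (-0.14) and leukocyte ones for 2 of 8 (-0.17), and in these 4 lists 0 were higher. Over all genes tested, 19.6% were called higher and 18.6% lower in this contrast, and counts of 1 or 2 markers in a list are not read as shifts. The part of the marker differences in the differences of the members was not tested.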

How the data were processed

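Endometrial RNA from both uterine horns of 20 heifers was sequenced in 40 libraries. Per the labels' protocols, RNA was extracted with Trizol from homogenised tissue, treated with DNase and made into stranded mRNA libraries. The deposited values are raw counts of reads per gene; per the submitters' processing notes HISAT2, FastQC and featureCounts were used with genome build UMD3.1, and versions, annotation and the handling of shared reads are not given in the sources used here. The mitochondrial row (0.0812% to 0.578% of reads) was left out of totals and tests.

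The members and the gene lists were chosen with earlier results of these data known. Counts were tested with edgeR 4.0.16 (quasi-likelihood, TMM, filterByExpr; R 4.3.3) over 8 group means of 40 libraries, with Benjamini-Hochberg adjusted p below 0.05 over all genes tested. A further fit added the centred log2 microRNA share, and microRNA rows were left out of counts of genes called on its slope. Horn contrasts of members are descriptions. Libraries were treated as separate samples of a group, and p-values measure the spread between them. Libraries with the same tag were checked as pairs through the correlation of their deviations from group means, which was above 0.1 in 6 of 20 tags (-0.382 to 0.833, median -0.0308), and the labels do not say what a tag is, so the main fit has no pairing and the tags are a block in an alternative. No column repeats another (0 identical columns). Named genes are the 10 members, up to 4 genes of each list with the largest called horn difference, of which some are given here, the 10 genes of highest likeness and the 5 largest microRNA rows. Alternatives were RLE scaling, no filter on low counts, limma-voom (limma 3.58.1), a robust prior, DESeq2 1.42.0, the tags as a block, other covariates and each library left out. The fits were tested on simulated data with known changes. Likeness used log2 CPM with a prior count of 2. Levels are CPM scaled with TMM factors; marker sums are unscaled CPM. Intervals and floors cover counting error only. Reference names were taken from RefSeq (ARS-UCD2.0, in which all 10 members are listed), and its positions served only to find which genes neighbour or overlap each other. No sequences are shown, and one related gene list is not reported here.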

Additional observations from a re-analysis of the deposited data

Results flagged for a closer look

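In 7 of 88 groups of 5 libraries checked (the 10 genes and the microRNA share in 8 groups each), the highest or lowest library lay further from the next than Dixon's critical value of 0.71 of the group's range allows, and chance alone flags about 1 in 20 groups. Among the signalling genes, NF1 was 8.39 CPM in ipsilateral day 13 library 5-167, where the next highest was 2.28 CPM. The same library held 38.4 CPM of LNPEP, against 15.5 CPM in the next. In contralateral day 16 library 5-137, NF1 was 5.10 CPM (next 1.54) and ABL2 8.13 CPM (next 4.83). The splicing-related genes were flagged on the low side. PPIG was 70.6 CPM in ipsilateral day 5 library 8-1350 (next 107.4) and 93.2 CPM in ipsilateral day 7 library 2-371 (next 107.3), and GCFC2 was 24.8 CPM in library 8-1350 (next 48.1).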

How the results depend on the processing

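The mean horn difference of all 10 genes stayed above 0 and past the threshold under RLE scaling, no filter, limma-voom, a robust prior, DESeq2, the replicate block and each library left out. In the main fit 19.6% of all genes were called higher. The list was picked on this contrast in these same libraries, so nothing is read from its members passing again. The counts over all genes moved more. Called lower in the ipsilateral horn on day 13 were 244 genes, but 393 with RLE scaling, 702 with DESeq2 and 159 with the replicate block (tags as a block); on day 16 they were 135, but 222, 480 and 60, and on day 7 they were 855, but 1444 with DESeq2. Members that changed with day in the contralateral horn were 2, but 1 with no filter and 1 with limma-voom, and in the ipsilateral horn 4, but 7 with limma-voom. With the tags as a block 0 genes had a slope on the share, 197 genes were higher and 109 lower between horns with the share in the fit, with 1 member among them, and the slope of SCAI was -0.00337.

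The slope on the share depended on the covariate. Genes called higher were 2, but 5 with no filter, 1 with the largest microRNA row left out of the share, 381 with the transfer RNA share and 0 with library size in its place, and genes called lower were 0, but 2 with limma-voom and 395 with the transfer RNA share. With the transfer RNA share, 1 member passed (PPIG, 0.72, adjusted p = 0.0246), and the slope of KCNA2 was 0.10 in limma-voom. With log2 library size as the covariate the slopes changed sign, to -0.65 for NF1, -0.24 for SCAI, -0.30 for SLFN12, -0.63 for DCX, -0.82 for LNPEP, -0.52 for PAK3, 0.46 for KCNA2, -0.16 for PPIG, -0.24 for GCFC2 and -0.25 for ABL2. Between horns with a covariate in the fit, 2771 genes were higher and 2173 lower with the transfer RNA share and 3893 and 3700 with library size, with 10 members past the threshold in both. The list was picked on the horn contrast, so nothing is read from those 10. The cause of the changes with the covariate was not tested.

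With each of 40 libraries left out in turn, genes called lower ranged from 401 to 1211 on day 7, from 95 to 412 on day 13 and from 58 to 349 on day 16, and genes called higher from 562 to 967 on day 13 and from 441 to 840 on day 16. Members called higher on day 13 ranged from 2 to 5, and members that changed with day from 3 to 7 in the ipsilateral and from 1 to 4 in the contralateral horn. On the slope, genes called higher ranged from 1 to 8 and lower from 0 to 3, with 0 to 1 members. With the share in the fit, genes lower between horns ranged from 463 to 1275 and members higher from 3 to 8. The slope of NF1 ranged from -0.59 to 1.22, and the log2 difference of the microRNA share on day 16 from 0.18 to 0.31, passing the unpaired test without contralateral library 7-107. A share without host-gene rows and a share of small nucleolar RNA rows gave no value, since 0 rows carry such names. Depth limits KCNA2, which had 0 reads in 1 library.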

Other observations

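The neighbours of the members on the chromosome, by RefSeq's bovine table, were also read between horns, and a link by position was not tested. PAK3 and DCX flank the calpain gene CAPN6 on either side, and CAPN6 itself was at -0.23 ± 0.13 in the mean horn contrast (edgeR adjusted p = 0.164) between members at 1.44 and 1.53. Neighbours were the protein-coding genes that come next before or after a member by start position, so a neighbour may lie within the span of a member. Of 19 such genes, 14 were tested, and 3 were called higher and 1 lower in the ipsilateral horn, where 19.6% and 18.6% of all genes were. The higher ones were KCNA3 beside KCNA2 (0.69 ± 0.16), EVI2A beside NF1 (0.56 ± 0.14) and FASTKD1 beside PPIG (0.47 ± 0.06), and the lower one TOR3A beside ABL2 (-0.23 ± 0.04). ERAP2, an aminopeptidase beside LNPEP, was at 0.10 ± 0.11 and SLFN11, beside SLFN12, at 0.19 ± 0.34, and neither passed.

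Among the rows that make the microRNA share, 74 had enough reads to test. Of these, 13 were called higher and 3 lower in the ipsilateral horn, where 19.6% and 18.6% of all genes were. The count of higher rows is thus no larger than the share over all genes. MIR421 (0.83 ± 0.11) and MIR374B (0.82 ± 0.12) were higher, as was LOC104970537, in which both lie, at 0.58. MIR3064 was at 0.31 ± 0.06, MIR568 at 0.37 ± 0.09 and MIR7865 at -0.24 ± 0.08. The share of reads on transfer RNA rows, a second class of short genes, was also 1.16 to 1.18 times as high in the ipsilateral horn, with adjusted p from 0.0635 to 0.0952 over the 4 days (unpaired exact permutation test).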
